A study of Homo sapiens with 9 samples.

Results

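Acetyl-CoA is the carrier of the acetyl groups from which cells build fatty acids and sterols and with which they acetylate histones, and 9 genes that supply it are described here. They are ACLY, ACSS1, ACSS2, SLC25A1, CS, PDHA1, PDHB, DLAT and DLD, and they were taken by name from the 26475 rows of the deposited count table. All 9 were found and all 9 passed the filter on low counts. RNA was sequenced from MDA-MB-231, a line derived from a human triple-negative breast adenocarcinoma, in 9 libraries. ACSL4 knockdown cells carried the lentiviral plasmid pLKO.1 with a short hairpin RNA against ACSL4, PRGL493 cells were control cells given the ACSL4 inhibitor PRGL493, and control cells carried the empty pLKO.1 plasmid, with 3 libraries in each group. All of these cells had thus been transduced with pLKO.1 and kept as stable lines. A second hairpin, and the dose, exposure time or vehicle of PRGL493, are not named in the labels. The series speaks of 3 batches of cells per group, so a p-value here tells of variation among batches of the same transduced cells.

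Most acetyl-CoA is made inside mitochondria, where the pyruvate dehydrogenase complex oxidises pyruvate. PDHA1 and PDHB encode the alpha and beta subunits of its E1 component, which decarboxylates pyruvate. DLAT encodes the E2 component, which passes the acetyl group to coenzyme A, and DLD the E3 component, which reoxidises the lipoyl arm of E2 and also serves the 2-oxoglutarate and branched-chain dehydrogenases and the glycine cleavage system. Acetyl-CoA cannot cross the inner membrane, so citrate synthase (CS) joins it to oxaloacetate, the citrate carrier SLC25A1 exports the citrate, and ATP-citrate lyase (ACLY) releases acetyl-CoA in the cytosol and nucleus. Acetate is a further source, which ACSS2 activates in the cytosol and nucleus and ACSS1 in mitochondria. ACLY, SLC25A1 and ACSS2 are known as targets of the SREBP transcription factors, which switch on lipid synthesis. ACSL4, the enzyme acted on in this series, joins coenzyme A to long-chain polyunsaturated fatty acids, and the series sets out from a link between ACSL4 and histone acetylation.

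Library totals ran from 28673940 to 43027217 counts. Levels are CPM, counts brought to a common library size with TMM factors, folds are on the log2 scale with the standard error (SE) of the model, and a gene was called changed at an edgeR adjusted p below 0.05 over all 14135 genes tested. ACSL4 itself had 29.5, 23.7 and 27.6 CPM under the hairpin, 333 to 360 CPM with PRGL493 and 339 to 366 CPM in the controls. This matches the label of the knockdown. PRGL493 and control libraries were alike in ACSL4 RNA (log2 -0.0059, edgeR adjusted p = 0.95), so it cannot tell those labels apart. In knockdown replicate 2, short transcripts (up to 2021 bases) lay a median 0.17 above and long ones (from 4828 bases) a median 0.17 below their mean over all libraries on the log2 scale, where the other libraries stayed within 0.071 of it. Values of the knockdown are therefore given without that library where its absence changes a call. This leaves the smaller tilts of the other libraries in place. Short transcripts lay at -0.034, -0.071 and -0.043 in PRGL493 replicates 1, 2 and 3. They lay at 0.044 in knockdown replicate 3 and at -0.028 in control replicate 3. Markers of the line, such as VIM and CD44, summed to between 7100 and 7482 CPM in the knockdown, 7188 and 7196 with PRGL493 and 7271 and 7395 in the controls. Of 10 leukocyte markers 8 and of 10 luminal or HER2 breast markers 6 averaged below 1 CPM, the oestrogen receptor gene ESR1 among them. The other leukocyte markers, CD68 and CD14, were at 128 and 26.1 CPM in the controls. The other luminal or HER2 markers there were KRT19 (415 CPM), ERBB2 (75.3 CPM), GATA3 (11.1 CPM) and GRB7 (3.79 CPM).

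Set against each other per kilobase of transcript, the 9 genes spanned a wide range in control cells. ACLY at 82.8 ± 1.68 and PDHB at 82.1 ± 1.06 CPM per kilobase (SD, n = 3) were highest, and their ranges overlapped. SLC25A1 at 47.8, CS at 45.8 and DLD at 43.1 CPM per kilobase came next, each overlapping its neighbour. PDHA1 at 31.3, DLAT at 29.4 and ACSS2 at 23.4 CPM per kilobase did not overlap the next gene in the order. ACSS1 was lowest at 3.15 ± 0.11 CPM per kilobase, so the mitochondrial acetate enzyme was the rare member of its pair. The 2 treatments left ACSS1 lowest and shifted the top of the order. In knockdown cells PDHB at 83.5 CPM per kilobase stood above ACLY at 66.5, and with PRGL493 ACLY at 100.4 stood above PDHB at 75.7, in both cases without overlap. With PRGL493 SLC25A1 reached 69.9 CPM per kilobase, clear of CS at 45.1, and ACSS2 at 34.2 overlapped DLD at 33.4. These levels used the length of each gene's principal GENCODE transcript, and the transcript made in these cells was not measured.

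Of the 9 genes, the knockdown raised ACSS1 and lowered ACLY, ACSS2 and PDHA1, and PRGL493 raised ACLY, ACSS1, ACSS2 and SLC25A1 and lowered DLD. In knockdown cells 1 of the 9 was thus called higher and 3 lower, beside 14.7% higher, 15.3% lower and 30.1% either way of all genes tested. All knockdown libraries lay above all controls for 1 gene and below them for 5, beside 20.8% and 21.2% of all genes. With PRGL493 4 were called higher and 1 lower, beside 21.4% higher, 20.4% lower and 41.8% either way. All PRGL493 libraries lay above all controls for 4 genes and below them for 2, beside 30.1% and 27.2%. Knockdown against PRGL493 gave 2 higher (PDHB and DLD) and 3 lower (ACLY, ACSS2 and SLC25A1), beside 24.4%, 26% and 50.4% either way, with no overlap upward for 2 genes and downward for 4, beside 27.3% and 28.8%. The median log2 fold change over the 9 genes was -0.13 in knockdown cells, -0.024 with PRGL493 and -0.026 between them, where all genes had medians of 0.00096, 0.0094 and -0.0089. Both treatments were set against the same control libraries.

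ACLY, which cuts exported citrate into acetyl-CoA and oxaloacetate, moved in opposite directions with the 2 treatments. Its level was 274, 298 and 293 CPM in knockdown libraries, 441, 445 and 420 CPM with PRGL493, and 351, 365 and 361 CPM in the controls. Every knockdown library lay below and every PRGL493 library above all controls. In knockdown cells ACLY fell by 19.7% (288 ± 12.7 against 359 ± 7.29 CPM, SD, n = 3 each, log2 fold change -0.32, SE 0.049, edgeR adjusted p = 0.00014). With PRGL493 it rose by 21.3% (436 ± 13.6 against 359 ± 7.29 CPM, log2 0.28, SE 0.049, adjusted p = 0.00025). Compared directly, knockdown cells had 66.2% of the ACLY RNA of PRGL493 cells (log2 -0.60, SE 0.049, adjusted p = 5.5e-08). The gene lies on chromosome 17 from 41866908 to 41930542 (GRCh38, minus strand). It shares 156 exon bases with the antisense gene AC125257.2, which has no row among the deposited counts.

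**Figure D1:**
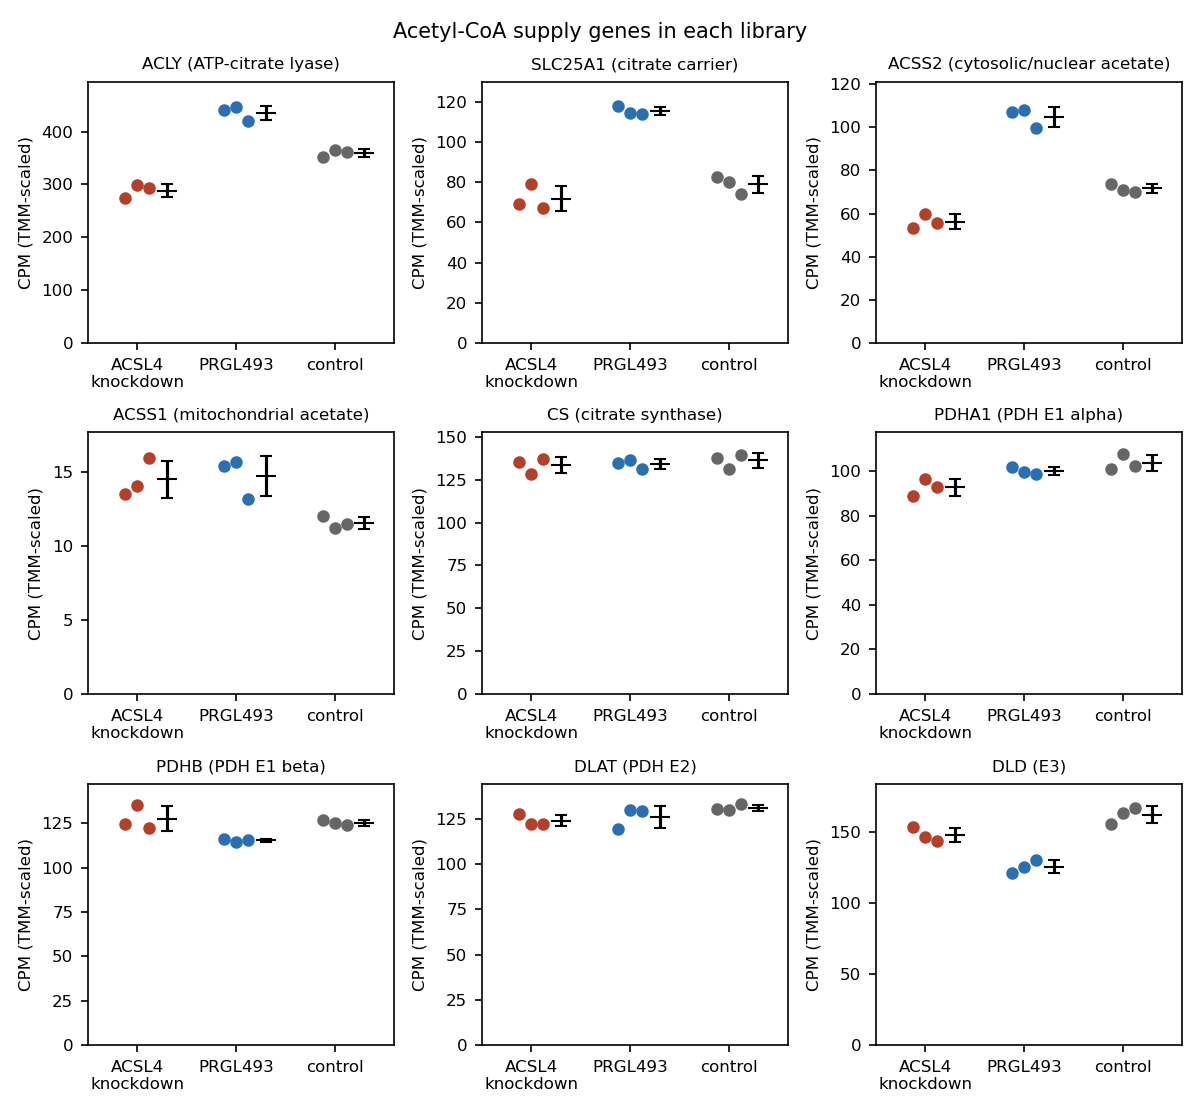
Level of each of the 9 genes in CPM (TMM-scaled, axes from 0) in the ACSL4 knockdown, PRGL493 and control libraries. Points are libraries, and the bar beside them is the mean with 1 SD (n = 3). ACLY and ACSS2 lie below the controls in the knockdown and above them with PRGL493, SLC25A1 lies above them with PRGL493, ACSS1 is higher in both treatments, DLD is lowest with PRGL493, and CS overlaps in all groups.

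ACSS2, the cytosolic and nuclear acetyl-CoA synthetase that recaptures acetate, showed the same split and the widest spread between treatments among the 9 genes. It stood at 53.1, 59.9 and 55.8 CPM in the knockdown, 107, 108 and 99.5 CPM with PRGL493, and 73.9, 71.1 and 70.0 CPM in the controls. The 3 groups did not overlap. ACSS2 fell by 21.5% in knockdown cells (56.3 ± 3.43 against 71.7 ± 2.01 CPM, log2 -0.35, SE 0.059, edgeR adjusted p = 0.00032) and rose by 46.2% with PRGL493 (105 ± 4.65 against 71.7 ± 2.01 CPM, log2 0.55, SE 0.059, adjusted p = 1.6e-06). Between knockdown and PRGL493 cells the log2 difference was -0.90 (SE 0.059, adjusted p = 3.3e-09), so knockdown cells held 53.7% of the level of PRGL493 cells. Of all genes tested, 6.46% differed more between these groups. For the other genes called there, this share was 11.6% (SLC25A1), 15.1% (ACLY), 50.4% (DLD) and 68.6% (PDHB). Against control, 20.5% of genes changed more than ACSS2 in the knockdown and 14.8% with PRGL493. ACSS2 lies on chromosome 20 from 34872146 to 34927962 (plus strand), and GGT7, which overlaps it on the other strand, shares 0 exon bases with it.

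SLC25A1, the carrier that exchanges mitochondrial citrate for malate, rose with PRGL493 as much as ACSS2 did. It was at 69.1, 78.9 and 67.1 CPM in knockdown libraries, 118, 114 and 114 CPM with PRGL493, and 82.3, 80.1 and 74.1 CPM in the controls. The PRGL493 libraries all lay above the controls, whereas the knockdown and control ranges overlapped through knockdown replicate 2. With PRGL493 the rise was 46.2% (115 ± 2.16 against 78.8 ± 4.23 CPM, log2 0.55, SE 0.064, edgeR adjusted p = 4.0e-06). In knockdown cells the level was 71.7 ± 6.31 against 78.8 ± 4.23 CPM without a call (log2 -0.14, SE 0.064, adjusted p = 0.12, 95% interval -0.27 to -0.0018). Leaving out knockdown replicate 2, with its excess of short transcripts, SLC25A1 was called lower (log2 -0.21, adjusted p = 0.0040). Its transcript is 1648 bases long, and once a trend with length and GC was taken out of each library, all libraries kept, it was not called (log2 -0.093, adjusted p = 0.086). Knockdown against PRGL493 gave a log2 difference of -0.69 (SE 0.064, adjusted p = 2.3e-07), and -0.76 without that library. The gene spans 19175575 to 19178830 on chromosome 22 (minus strand) and has 5 processed pseudogenes in GENCODE 29, with which reads may be shared.

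The promoters of ACLY, SLC25A1 and ACSS2 are shown, since these genes are known SREBP targets and all rose with PRGL493. Each window runs from 250 bases before to 50 bases after a RefSeq start on GRCh38.p14, 5′ to 3′ on the gene's strand, and where RefSeq lists 2 starts the window nearest to the principal transcript was taken. Windows are chr17:41918973-41919272 (minus strand), chr22:19178687-19178986 (minus strand) and chr20:34876362-34876661 (plus strand). Capitals mark the CCAAT box CCAAT, the GC box GGGCGG and the ETS motif CCGGAAG on either strand.
ACLY: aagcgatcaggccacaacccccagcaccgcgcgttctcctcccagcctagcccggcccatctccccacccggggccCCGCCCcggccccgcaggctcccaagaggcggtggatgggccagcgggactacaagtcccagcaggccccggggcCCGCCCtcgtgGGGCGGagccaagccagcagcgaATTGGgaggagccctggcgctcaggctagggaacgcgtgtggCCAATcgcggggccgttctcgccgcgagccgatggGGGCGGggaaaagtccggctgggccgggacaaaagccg
SLC25A1: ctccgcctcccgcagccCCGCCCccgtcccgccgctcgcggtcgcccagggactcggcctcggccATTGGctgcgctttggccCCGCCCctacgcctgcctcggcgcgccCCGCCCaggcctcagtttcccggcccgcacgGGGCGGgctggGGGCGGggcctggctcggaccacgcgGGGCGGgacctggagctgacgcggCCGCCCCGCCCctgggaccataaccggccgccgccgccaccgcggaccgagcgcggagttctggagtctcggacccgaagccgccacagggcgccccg
ACSS2: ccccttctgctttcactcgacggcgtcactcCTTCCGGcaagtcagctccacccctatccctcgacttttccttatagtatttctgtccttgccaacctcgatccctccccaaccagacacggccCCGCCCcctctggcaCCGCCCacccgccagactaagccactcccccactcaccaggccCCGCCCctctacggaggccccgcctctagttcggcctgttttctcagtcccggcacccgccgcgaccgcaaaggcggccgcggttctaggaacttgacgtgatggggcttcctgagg
ACLY held CCAAT boxes of opposite orientation and 4 GC boxes, SLC25A1 held 1 CCAAT box and 8 GC boxes, and the ACSS2 window shown held 3 GC boxes and an ETS motif, while its other RefSeq start had a CCAAT box. Of the 13 windows of the 9 genes, 9 held a CCAAT box and 9 a GC box. The windows of ACLY overlap each other, as do those of DLD, so a shared box counts in both windows. Counted by gene, 7 of 9 held a CCAAT box and 7 of 9 a GC box. Of 35116 windows of all genes, 34.6% held a CCAAT box and 45.0% a GC box. The sterol element searched as TCACNCCAC on both strands was in 0 of the 13 windows and in 1.13% of all windows, which says only that these letters are not there. The E-box CACGTG was found in PDHB, and 7.26% of all windows held it. An ETS motif was in 10.3% of all windows, and neither the NRF1 motif (1.24% of all windows) nor the oestrogen-related receptor motif TCAAGGTCA (0.353%) was in a window of the 9 genes. None of the motifs overlapped another except adjoining GC boxes in SLC25A1.

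ACSS1, the mitochondrial acetate enzyme, was raised by both treatments. Its level was 13.5, 14.1 and 15.9 CPM in knockdown libraries, 15.4, 15.7 and 13.2 CPM with PRGL493, and 12.05, 11.3 and 11.5 CPM in the controls. All treated libraries lay above all controls, on counts of 347 to 635 per library. It rose by 25.2% in knockdown cells (14.5 ± 1.26 against 11.6 ± 0.406 CPM, log2 0.32, SE 0.089, edgeR adjusted p = 0.012) and by 27.5% with PRGL493 (14.8 ± 1.36 against 11.6 ± 0.406 CPM, log2 0.35, SE 0.090, adjusted p = 0.0050). Both rises were measured against the same 3 control libraries. Between the treatments ACSS1 was not called (log2 -0.026, SE 0.087, adjusted p = 0.82), with a 95% interval of -0.21 to 0.16. The knockdown call was lost without control replicate 2 (log2 0.30, adjusted p = 0.051) and without knockdown replicate 3 (log2 0.25, adjusted p = 0.068). ACSS1 and ACSS2 therefore moved apart in knockdown cells and together with PRGL493. ACSS1 lies on chromosome 20 from 25006230 to 25058980 (minus strand).

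CS, which makes the citrate, was the steadiest of the 9 genes. It was at 135, 129 and 137 CPM in knockdown libraries, 135, 137 and 131 CPM with PRGL493, and 138, 131 and 140 CPM in the controls. The groups overlapped throughout. The log2 difference was -0.028 (SE 0.050, edgeR adjusted p = 0.71, 95% interval -0.13 to 0.077) in knockdown cells, -0.024 (SE 0.050, adjusted p = 0.74, interval -0.13 to 0.082) with PRGL493 and -0.0046 (adjusted p = 0.95, interval -0.11 to 0.10) between the treatments. The sign of the CS difference in knockdown cells turned with library totals alone (0.0059) and upper-quartile factors (0.0041). CS lies on chromosome 12 from 56271699 to 56300392 (minus strand). It shares 220 exon bases with the protein-coding gene AC073896.1 on the same strand, which has no row among the deposited counts.

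The genes of the pyruvate dehydrogenase complex differed in their response, DLD changing with PRGL493 and DLAT being called in no comparison. PDHA1 was at 89.0, 96.5 and 92.7 CPM in the knockdown, 102, 99.7 and 98.5 CPM with PRGL493 and 101, 108 and 102 CPM in the controls. All knockdown libraries lay below all controls, and the PRGL493 libraries overlapped them. PDHA1 fell by 10.5% in knockdown cells (92.7 ± 3.76 against 104 ± 3.52 CPM, log2 -0.16, SE 0.052, edgeR adjusted p = 0.029), a call that leaving out single libraries ended. Without control replicate 2 it was -0.13 (adjusted p = 0.14) and without control replicate 3 -0.17 (0.061). Without knockdown replicate 1 the value was -0.13 and without knockdown replicate 3 -0.16 (adjusted p = 0.072 for each). Library totals alone (adjusted p = 0.065), upper-quartile factors (0.079) and a fit of the 6 libraries compared (0.054) ended it too. With PRGL493 the PDHA1 difference was -0.051 (SE 0.052, adjusted p = 0.46), and between the treatments -0.11 (adjusted p = 0.091), called without knockdown replicate 2 (-0.14, adjusted p = 0.025) and after removal of the length and GC trend (-0.11, adjusted p = 0.028). PDHA1 values were not whole numbers in any of the 9 libraries, unlike those of the other 8 genes. It has a processed pseudogene on chromosome 3, and 956 of its exon bases are shared with MAP3K15 on the other strand, which averaged 5.72, 6.27 and 7.19 CPM in knockdown, PRGL493 and control cells. PDHA1 spans 19343893 to 19361705 on chromosome X (plus strand).

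PDHB, the partner of PDHA1 in E1, was at 125, 135 and 122 CPM in knockdown libraries, 116, 115 and 116 CPM with PRGL493, and 127, 125 and 124 CPM in the controls. The PRGL493 libraries lay below all others, but against the controls PDHB was not called (log2 -0.12, SE 0.051, edgeR adjusted p = 0.077). It was called without knockdown replicate 1 (adjusted p = 0.043) or 2 (0.026), which share the estimate of spread. Removing a trend with length and GC from each library brought the difference between PRGL493 and control to -0.050 (adjusted p = 0.26). In knockdown cells it was at 1.77% above control (log2 0.025, SE 0.051, adjusted p = 0.75). Knockdown against PRGL493 passed the test (log2 0.14, SE 0.051, adjusted p = 0.028), but without knockdown replicate 2 the value was 0.097 (adjusted p = 0.092), without PRGL493 replicate 1 0.16 (0.055) and without PRGL493 replicate 2 0.15 (0.071). The PDHB transcript is 1527 bases long, and with a length and GC trend removed per library that value was -0.047 (adjusted p = 0.27). Removing the trend also turned PDHB in the knockdown to -0.097 against control (adjusted p = 0.039). PDHB lies on chromosome 3 from 58427630 to 58433857 (minus strand). It shares 360 exon bases with the antisense gene AC135507.1, which has no row among the deposited counts.

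DLAT, the acetyltransferase core, was at 128, 122 and 122 CPM in knockdown libraries, 119, 130 and 129 CPM with PRGL493, and 130, 130 and 133 CPM in the controls. The knockdown libraries lay below the controls by a small margin, and the PRGL493 libraries overlapped them. Neither difference passed the test (log2 -0.080, SE 0.051, edgeR adjusted p = 0.26 in knockdown cells and log2 -0.056, SE 0.051, adjusted p = 0.41 with PRGL493). Between the treatments the log2 difference was -0.025 (adjusted p = 0.71). DLAT lies on chromosome 11 from 112024814 to 112064390 (plus strand). It shares 212 exon bases with PIH1D2 on the other strand, which averaged 0.837, 0.940 and 1.13 CPM in knockdown, PRGL493 and control cells.

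DLD, the E3 shared with other dehydrogenases, was the only one of the 9 genes called lower with PRGL493. Its level was 153, 146 and 144 CPM in knockdown libraries, 121, 125 and 130 CPM with PRGL493, and 155, 163 and 167 CPM in the controls. All PRGL493 libraries lay below all others. DLD fell by 22.6% with PRGL493 (125 ± 4.66 against 162 ± 6.04 CPM, log2 -0.37, SE 0.052, edgeR adjusted p = 2.9e-05). In knockdown cells it was at 148 ± 4.98 against 162 ± 6.04 CPM without passing the test (log2 -0.13, SE 0.052, adjusted p = 0.063), and without knockdown replicate 1 it was called (log2 -0.16, adjusted p = 0.029), and likewise once the trend with length and GC was taken out (adjusted p = 0.0035). Knockdown cells had more DLD than PRGL493 cells (log2 0.24, SE 0.052, adjusted p = 0.0011). DLD lies on chromosome 7 from 107890970 to 107931730 (plus strand) and shares 70 exon bases with the laminin gene LAMB1 on the other strand. LAMB1 fell with PRGL493 as well (249 ± 9.14 against 389 ± 11.4 CPM, log2 -0.65, adjusted p = 5.6e-08). At its level per length, those 70 bases would carry 3.04 CPM with PRGL493 and 4.76 CPM in the controls.

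**Figure D2:**
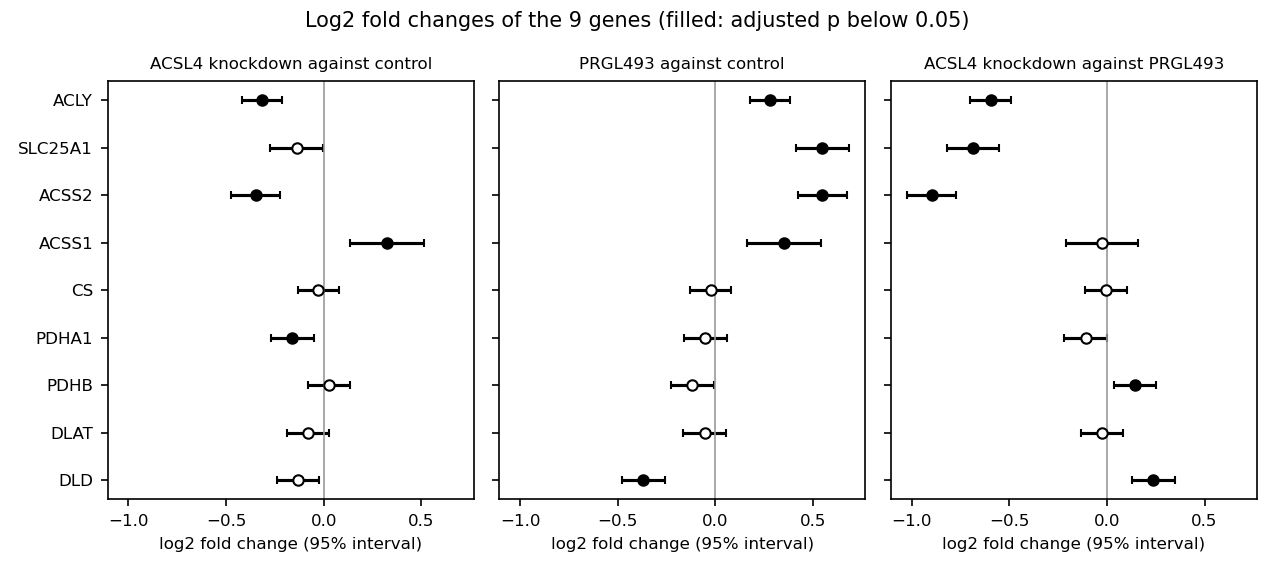
Log2 fold change of each gene with its 95% interval in 3 panels (the knockdown and PRGL493 each over control, then the knockdown over PRGL493). Filled points passed an edgeR adjusted p below 0.05. ACLY, SLC25A1 and ACSS2 lie at -0.60, -0.69 and -0.90 in the panel of knockdown against PRGL493, while CS lies at -0.0046.

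Ratios of genes within a library do not depend on how libraries are scaled, and they are given per kilobase as a description. ACLY stood to CS at 1.48 ± 0.10 in knockdown cells, 2.23 ± 0.027 with PRGL493 and 1.81 ± 0.085 in the controls (SD, n = 3). The groups did not overlap, with knockdown libraries at 1.39 to 1.59, PRGL493 libraries at 2.20 to 2.25 and controls at 1.74 to 1.90. SLC25A1 stood to CS at 0.971 ± 0.12 in the knockdown, 1.55 ± 0.036 with PRGL493 and 1.05 ± 0.076 in the controls, and here knockdown and control libraries overlapped. The overlap came from knockdown replicate 2, the library set apart by transcript length, at 1.11, while the other knockdown libraries at 0.921 and 0.883 lay below the controls at 0.959 to 1.10. The cytosolic ACSS2 exceeded the mitochondrial ACSS1 by 4.67 ± 0.45 times in knockdown cells, 8.54 ± 0.43 times with PRGL493 and 7.42 ± 0.14 times in the controls. DLD stood to DLAT at 1.41 ± 0.018, 1.18 ± 0.032 and 1.47 ± 0.046 in knockdown, PRGL493 and control cells. The lowest ratio of E3 to E2 transcripts was thus that of PRGL493 cells, at 1.14 to 1.20 against 1.41 to 1.496 in the controls. PDHA1 stood to PDHB at 0.336 ± 0.012 in knockdown cells, 0.399 ± 0.0057 with PRGL493 and 0.381 ± 0.015 in the controls. The ratio of ACSS2 to ACLY was 0.276 ± 0.0078 in knockdown cells and 0.283 ± 0.013 in the controls, with overlap, and 0.340 ± 0.0046 with PRGL493, above all controls.

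**Figure D3:**
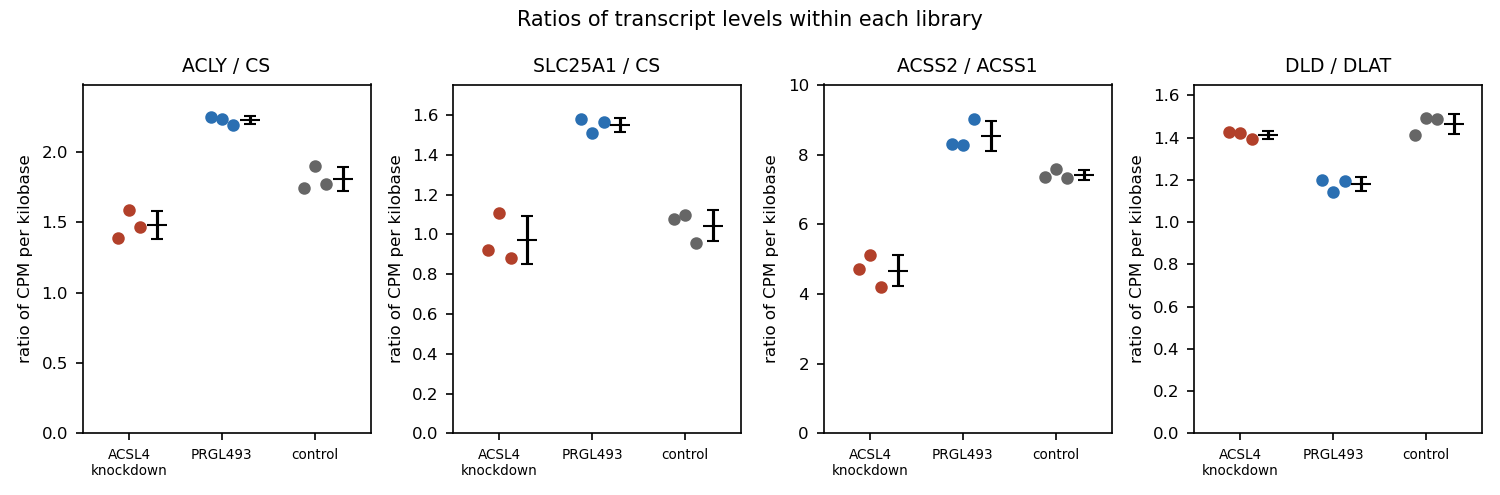
Ratios of transcript levels per kilobase within each library (axes from 0) for ACLY to CS, SLC25A1 to CS, ACSS2 to ACSS1 and DLD to DLAT in the ACSL4 knockdown, PRGL493 and control groups. Points are libraries and bars the mean with 1 SD (n = 3). ACLY to CS is 1.48, 2.23 and 1.81 in the 3 groups and DLD to DLAT 1.41, 1.18 and 1.47.

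The other genes around acetyl-CoA were followed in lists, given by counts of genes called beside the shares of all genes above. Examples were taken for each treatment by adjusted p, so a gene given for 1 treatment may also have changed in the other. Genes of SREBP and lipid synthesis moved most. Of 28 tested, 20 were lower and 2 higher in knockdown cells (median log2 -0.26), and 23 were higher and 1 lower with PRGL493 (median 0.64). The sterol carrier STARD4 (27.3 against 65.4 CPM, log2 -1.26, edgeR adjusted p = 4.3e-10) and INSIG1, which retains the SREBP escort in the endoplasmic reticulum (log2 -0.83), were among those with the smallest adjusted p in knockdown cells. The desaturase SCD (log2 -0.67) and LSS, lanosterol synthase (log2 -0.63), were others. With PRGL493 the phosphatidate phosphatase LPIN1 (117 against 44.3 CPM, log2 1.40, adjusted p = 6.7e-12), SCD (log2 1.19) and the desaturase FADS2 (log2 1.18) were among those with the smallest adjusted p. This list was chosen with earlier results of these data known, so its counts are no independent evidence for the direction of ACLY, ACSS2 and SLC25A1.

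Among 15 genes that use acetyl-CoA, 0 were higher and 3 lower in knockdown cells, and 7 were higher and 1 lower with PRGL493 (median log2 -0.098 and 0.29). Those 3 were the fatty acid synthase FASN (205 against 373 CPM, log2 -0.86, edgeR adjusted p = 1.0e-06), HMGCS1, which opens the sterol pathway (log2 -0.56), and the acetyl-CoA carboxylase ACACA (log2 -0.31). With PRGL493 FASN reached 831 against 373 CPM (log2 1.16, adjusted p = 2.6e-08). The cytosolic thiolase ACAT2 (45.9 against 29.7 CPM, log2 0.63), ACACA (160 against 108 CPM, log2 0.57) and HMGCS1 (log2 0.53) rose too. The mitochondrial thiolase ACAT1 fell (83.9 against 120 CPM, log2 -0.51, adjusted p = 4.0e-06).

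Acetate handling changed in single genes. Of 12 tested, 3 were higher and 2 lower in knockdown cells and 4 higher and 3 lower with PRGL493 (median log2 -0.011 and 0.090). The monocarboxylate transporter SLC16A1, which carries lactate, pyruvate and acetate, was at 2.73 against 9.17 CPM with PRGL493 (log2 -1.75, SE 0.12, edgeR adjusted p = 8.3e-09) and at 11.8 against 9.17 CPM in knockdown cells (log2 0.36, adjusted p = 0.014). Its relative SLC16A3 rose with PRGL493 (794 against 628 CPM, log2 0.34, adjusted p = 9.9e-05). ACSS3, a mitochondrial acyl-CoA synthetase of short chains, fell in both treatments (6.98 against 10.1 CPM, log2 -0.54, adjusted p = 0.00060 in knockdown cells, and 5.73 against 10.1 CPM, log2 -0.82, adjusted p = 7.4e-06 with PRGL493), opposite to ACSS1. The aldehyde dehydrogenase ALDH2, which makes acetate from acetaldehyde, fell in knockdown cells (75.3 against 92.0 CPM, log2 -0.29, adjusted p = 0.0021) and rose with PRGL493 (129 against 92.0 CPM, log2 0.49, adjusted p = 9.9e-06). ALDH1A3, an aldehyde dehydrogenase that acts on retinal, rose in knockdown cells (63.3 against 55.0 CPM, log2 0.20, adjusted p = 0.0069) and with PRGL493 (67.2 against 55.0 CPM, log2 0.29, adjusted p = 0.00027).

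Around the pyruvate dehydrogenase complex 4 of 13 genes of pyruvate entry and regulation were higher and 1 lower in knockdown cells, and 3 higher and 2 lower with PRGL493 (median log2 0.032 and 0.077). PDHX, which anchors E3 to the E2 core, rose in knockdown cells (61.4 against 51.6 CPM, log2 0.25, edgeR adjusted p = 0.0023) and fell with PRGL493 (41.6 against 51.6 CPM, log2 -0.31, adjusted p = 0.00026), where DLD fell as well. The phosphatase PDP1, which activates E1, fell in knockdown cells (342 against 433 CPM, log2 -0.34, adjusted p = 7.3e-05), and the kinase PDK4, which silences it, rose at a low level (8.35 against 5.86 CPM, log2 0.51, adjusted p = 0.0013). The kinase PDK2 (45.7 against 38.8 CPM, log2 0.24, adjusted p = 0.0045) and the phosphatase PDP2 (30.3 against 25.6 CPM, log2 0.24, adjusted p = 0.0099) rose with PRGL493. MPC2, a subunit of the mitochondrial pyruvate carrier, rose in both treatments (log2 0.27 in knockdown cells and 0.28 with PRGL493, adjusted p = 0.018 and 0.010).

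Of the other complexes that use DLD, 8 subunits were tested, of which 2 were higher and 2 lower in knockdown cells and 0 higher and 3 lower with PRGL493 (median log2 0.030 and -0.14). The 3 were BCKDHA, E1 of the branched-chain complex (32.6 against 43.2 CPM, log2 -0.40, edgeR adjusted p = 0.00012), DLST, E2 of the 2-oxoglutarate complex (128 against 157 CPM, log2 -0.29, adjusted p = 0.00054), and DHTKD1 (44.1 against 50.4 CPM, log2 -0.19, adjusted p = 0.014). In knockdown cells BCKDHB (log2 -0.30) and OGDH (log2 -0.18) fell, and GCSH (log2 0.31) and DBT (log2 0.33) rose. Of 16 citric acid cycle enzymes besides CS, 1 was higher and 2 lower in knockdown cells, and 1 higher and 4 lower with PRGL493 (median log2 0.038 and -0.11). SUCLG2, a subunit of succinyl-CoA synthetase, rose in knockdown cells (99.2 against 89.3 CPM, log2 0.15, adjusted p = 0.032) and fell with PRGL493 (69.1 against 89.3 CPM, log2 -0.37, adjusted p = 2.5e-05). IDH3A fell in knockdown cells (log2 -0.20). IDH3G rose with PRGL493 (log2 0.39) and SDHB, a subunit of succinate dehydrogenase, fell (log2 -0.29). Of 11 carriers and enzymes of the citrate shuttle, 2 were higher and 1 lower in knockdown cells and 3 higher and 1 lower with PRGL493 (median log2 0.069 and -0.079). The dicarboxylate carrier SLC25A10 rose in both (log2 0.32 and 0.55, adjusted p = 0.0030 and 1.4e-05), as did the cytosolic isocitrate dehydrogenase IDH1 (log2 0.21 and 0.31). The cytosolic malic enzyme ME1 fell in knockdown cells (log2 -0.17). With PRGL493 the mitochondrial malic enzyme ME2 fell (52.3 against 71.5 CPM, log2 -0.45, adjusted p = 8.7e-06) and ACO1 rose (log2 0.17). Some genes stand in more than 1 list, among them OGDH, DLST, FASN and HMGCS1.

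**Figure D4:**
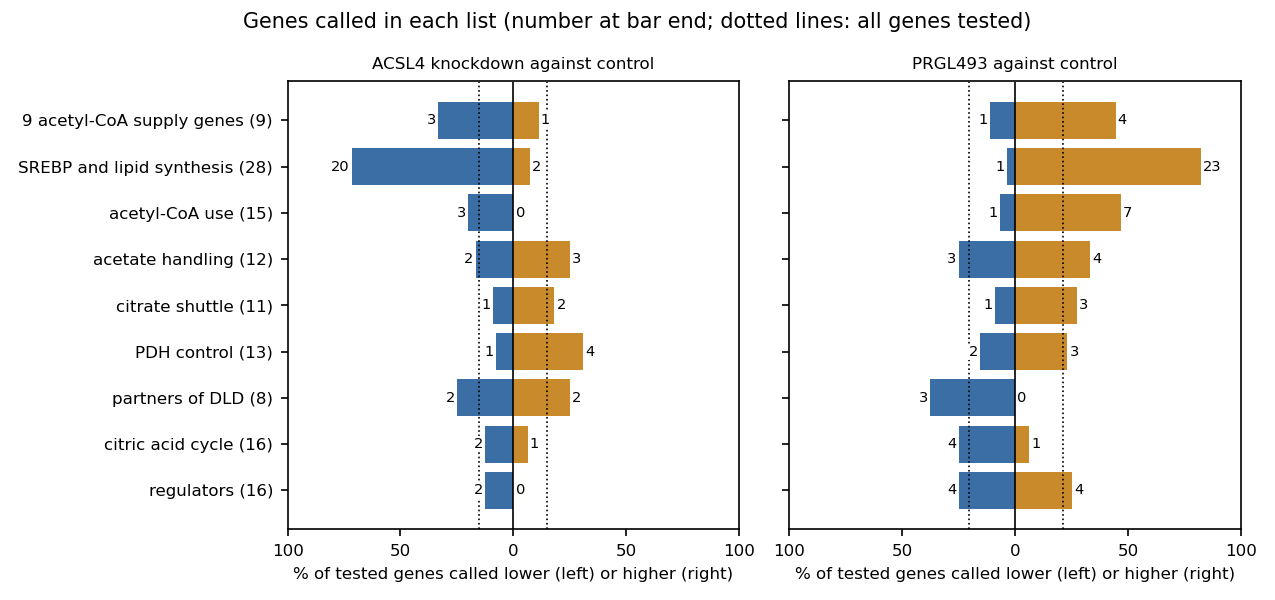
Percent of the tested genes of each list called lower (left, blue) and higher (right, orange) for knockdown against control and PRGL493 against control. Numbers at bar ends are genes called, numbers in brackets genes tested, and dotted lines the percent of all genes called. Lipid synthesis genes are 20 lower in the knockdown and 23 higher with PRGL493. The lists of the citric acid cycle and of partners of DLD have 4 of 16 and 3 of 8 genes lower with PRGL493, beside 20.4% of all genes. DLST is counted in both of these lists.

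Genes whose pattern was most like that of a called gene were sought among 11072 genes whose log2 CPM averaged 2 or more. The measure was the root mean square difference of log2 CPM, centred on each gene's mean, over the 9 libraries, so a small value means a close match. Steady genes give small values with any other steady gene, so values do not rank closeness between genes. For ACLY they were CCDC69 (0.039), the mitochondrial serine carrier family member SFXN3 (0.039) and ornithine aminotransferase OAT (0.040), where ACLY's own SD around its mean was 0.25. ACSS2 was matched by the autophagy receptor SQSTM1 (0.040) and by LLGL2 (0.051). SLC25A1 was matched by TANGO2 (0.048), by the farnesyl diphosphate synthase FDPS (0.054) and by NADSYN1, which makes NAD (0.058). For DLD they were the zinc transporter SLC39A10 (0.031), LIMA1 (0.035) and TRMT6 (0.035). PDHB (own SD 0.073) was matched by LDHB (0.018), a lactate dehydrogenase subunit, DGUOK (0.021) and CHCHD3 (0.026). The PDHB transcript is short (1527 bases), and the trend with length and GC was not removed for this search. Whether the excess of short transcripts in knockdown replicate 2 shaped these matches was not tested. ACSS1 (own SD 0.18) was matched by SLC29A2 (0.059), CDC25B (0.062) and TACC3 (0.064), and PDHA1 (own SD 0.077) by PSME3 (0.029), ACOT9 (0.029) and EPS15L1 (0.032). None of these matches was another of the 9 genes.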

How the data were processed

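RNA was sequenced from 9 MDA-MB-231 libraries in 3 groups of 3, grouped by the sample titles, with replicate numbers as titled. The authors deposited expected counts per gene symbol, not scaled for depth. Of the values 6.74% were not whole within 0.01, and they were rounded to whole numbers before testing. The design had assumed whole counts, and its test also takes rounded estimates. Trizol extraction and an Illumina library protocol are named per the labels' protocols, and the submitters' processing notes name the build GRCh38. How reads were aligned and counted, with which annotation and whether by strand, is not given in the sources used here, so counts of overlapping genes and of genes with near-identical copies are uncertain. In 28 rows the symbol had become a date, and these stayed in totals and tests.

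Genes passing filterByExpr (14135) were scaled with TMM and fitted with edgeR 4.0.16 in R 4.3.3 (glmQLFit, robust) over all 9 libraries on group alone, with 6 residual degrees of freedom and a biological coefficient of variation of 6.38%. Every adjusted p is from this quasi-likelihood test with Benjamini-Hochberg adjustment over all genes tested. Alternatives were other scalings and filters, DESeq2 1.42.0, a replicate block, a length and GC trend fitted per library with mgcv 1.9.3 (94.3% of genes had a length in GENCODE 29), fits of 6 libraries, and leaving out each library. The test was also run on simulated counts, and the outcome is not reported here. Log2 CPM used a prior count of 2. Named list genes are up to 4 called genes with the smallest adjusted p per list and treatment, and some genes that this rule or the search for like patterns gave are not reported here. Of 174 listed genes 174 matched a row. The 9 genes and the lists were chosen with earlier results of these data known.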

Additional observations from a re-analysis of the deposited data

How the results depend on the processing

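The replicate numbers did not meet the rule for pairing: same-numbered deviations correlated by 0.062 to 0.15 between knockdown and control, -0.084 to -0.015 between PRGL493 and control and -0.071 to -0.038 between the treatments, although every knockdown and control library correlated best with its own number. With the replicate block 1 gene instead of 2 was called higher between the treatments, as PDHB missed the threshold (log2 0.14, adjusted p = 0.052). In the knockdown 2 genes instead of 3 were then called lower, as PDHA1 lost its call (adjusted p = 0.050). Library totals alone, upper-quartile factors and the fit of 6 libraries also gave 2 lower. PDHA1 in the knockdown was called in 10 of 18 alternatives. The calls of ACLY and ACSS2 in all 3 comparisons, of SLC25A1 and DLD with PRGL493 and between the treatments, and of ACSS1 with PRGL493 kept their direction and side of the threshold under all 18 alternatives.

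With the length and GC trend removed, with or without the block, 5 genes in place of 3 were called lower in the knockdown, PDHB turning to -0.097 and DLD being called, and 1 in place of 2 was called higher between the treatments, PDHB turning to -0.047 and ACSS1 to 0.092, and 4 in place of 3 lower, PDHA1 being called (-0.11, adjusted p = 0.028). In PRGL493 against control 2 in place of 1 were called lower with upper-quartile factors, with at least 1 CPM in 3 libraries and with 6 libraries, where PDHB passed. The fit of 6 libraries called 1 higher between the treatments. Leaving out each library gave 0 to 1 genes higher and 2 to 4 lower in the knockdown, 4 to 4 higher and 1 to 2 lower with PRGL493, and 1 to 2 higher and 3 to 4 lower between them. Other reversals were of differences that passed no test. In the knockdown CS was 0.0059 (library totals) and 0.0041 (upper quartile), and PDHB ran between -0.020 and 0.055 without single libraries. Between the treatments CS was 0.014 (library totals), 0.050 (upper quartile), 0.014 (at least 1 CPM) and 0.0034 (DESeq2), and -0.023 to 0.023 without single libraries. ACSS1 was 0.029 (upper quartile) and -0.098 to 0.032 without single libraries, and DLAT was 0.030 (upper quartile) and -0.057 to 0.0065 without single libraries. The causes were not tested. Of all calls in the knockdown 49.0% were higher, against 59.9% with library totals alone.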

Other observations

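Known regulators of these enzymes were counted beside them. Of 16 tested, 0 were higher and 2 lower in knockdown cells and 4 higher and 4 lower with PRGL493, beside 14.7% higher and 15.3% lower, and 21.4% higher and 20.4% lower, of all genes. MYC, a factor that drives many metabolic genes, fell in both (188 against 397 CPM, log2 -1.07, edgeR adjusted p = 1.1e-10 in knockdown cells, and 257 against 397 CPM, log2 -0.62, adjusted p = 8.5e-08 with PRGL493). PRKAA2, a catalytic subunit of AMP-activated kinase, fell in knockdown cells (33.3 against 40.0 CPM, log2 -0.26, adjusted p = 0.035). With PRGL493 STRADA, a partner of the kinase that activates AMP-activated kinase (22.2 against 16.5 CPM, log2 0.43), rose, and HIF1A, the hypoxia factor (484 against 601 CPM, log2 -0.31), fell. The SREBP factor gene SREBF1 was at 157 against 199 CPM in knockdown cells (log2 -0.34, adjusted p = 0.00024) and at 310 against 199 CPM with PRGL493 (log2 0.64, adjusted p = 1.6e-07), and was named after its values were seen.

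Summed levels of markers of other cell types differed between the groups. The 10 luminal or HER2 markers summed to 407 to 494 CPM in the knockdown, 631 to 652 CPM with PRGL493 and 474 to 523 CPM in the controls. Most of this was KRT19, which averaged 361, 529 and 415 CPM in these groups. The 10 leukocyte markers, of which MS4A1, for example, had no count in any library, summed to 174 to 189, 112 to 123 and 148 to 164 CPM in the same groups. Nearly all of this was CD68 (146, 95.6 and 128 CPM) and CD14 (37.1, 21.0 and 26.1 CPM), so the sum follows these genes. The 10 endothelial or stromal markers summed to 43.8 to 45.6, 33.3 to 34.7 and 47.3 to 51.5 CPM. With PRGL493 the median log2 fold change of the tested markers was 0.35 for the luminal or HER2 list (3 of 4 called higher), -0.31 for the leukocyte list (2 of 3 called lower) and -0.35 for the endothelial or stromal list (3 of 6 called lower). Of all genes tested, 21.4% were called higher and 20.4% lower with PRGL493. So few tested markers show nothing particular to the lists. In knockdown cells the medians of the lists, in the same order, were 0.13, 0.20 and -0.28. The part of the markers in the results was not tested.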
